A study of Rattus norvegicus with 9 samples.

Results

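RNA sequencing of the tissue that refilled the site of a removed meniscus in the rat knee was compared with RNA sequencing of the synovium of unoperated knees. The comparison takes 6 of the series' 9 libraries, namely the 3 labelled pMx and the 3 labelled Intact, and the 3 Sham libraries are given beside them. All animals were wild-type (WT) male Lewis rats. In the pMx group, a partial meniscectomy removed the front part of the medial meniscus of both knees, and the regenerating tissue was cut away from the remaining meniscus and cleared of surrounding synovium 1 week later. The intact group had no surgery, and its tissue was the synovium around the medial meniscus. The sham group was the same synovium 1 week after the joint capsule had been opened and closed. The pMx and intact groups therefore differed in the surgery and in the tissue taken, and these cannot be told apart in the comparison. The labels call the samples of a group biological replicates but do not say which knees or animals each came from, so the p-values measure the spread between these samples.

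The meniscus is a fibrocartilage made mostly of type I collagen fibrils, with proteoglycans such as aggrecan in its inner zone. The synovium is the lining of the joint. It has a surface layer of macrophages and of fibroblasts that secrete lubricin and hyaluronan, over a looser layer with fat cells, blood and lymph vessels, nerve fibers and fibroblasts. In rodents a removed meniscus can refill with tissue that grows from the surrounding synovium, and an early repair tissue of this kind is rich in dividing cells and in fibroblasts that lay down and remodel matrix.

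The authors deposited TPM, a measure of transcript abundance scaled by transcript length and to a total of 1000000 in each library, for 17602 genes. TPM keeps no read numbers, so the depth of the libraries is unknown. The standard errors (SE) and p-values below rest on the spread within groups, estimated jointly over the 9 libraries and adjusted by eBayes. The number of genes above 0 TPM was 15914 to 15965 in the intact libraries and 15644 to 15794 in the pMx libraries. On the scale of log2(TPM + 1), correlations across genes were 0.987 to 0.996 between pMx libraries and 0.902 to 0.933 between pMx and intact libraries. Intact replicates 1 and 2 correlated at 0.993, but intact replicate 3 correlated with them at 0.954 and 0.960. Intact replicate 3 held skeletal muscle RNA. The 31 skeletal muscle markers took 0.0146% and 0.0456% of all TPM in intact replicates 1 and 2 but 6.94% in intact replicate 3. They took 0.425%, 0.504% and 0.0154% in pMx replicates 1 to 3, so pMx replicates 1 and 2 stood above the first 2 intact libraries. Acta1, the skeletal muscle actin, was at 12.6, 43.6 and 14307 TPM in the intact and 753, 748 and 13.9 TPM in the pMx libraries. The counts of called genes below are therefore also given without intact replicate 3. Per the quality table of the study, the RNA integrity values were lowest in intact, higher in sham and highest in pMx samples, with no overlap between the groups. The part of these differences in the results was not tested.

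The pMx tissue and the intact synovium differed in 2360 of the 16512 genes tested, with 1057 higher in pMx (6.4%) and 1303 lower (7.89%). A gene was called when limma's adjusted p was below 0.05 and its log2 fold change was beyond 1 in either direction. In 1055 of the 1057 higher genes and 1298 of the 1303 lower genes, the TPM of the pMx and intact libraries did not overlap. Of all 16512 genes tested, all pMx libraries lay above all intact libraries in 4449 and below them in 5048. An absence of overlap was therefore also common outside the called genes. The log2 fold change was over 2 in 282 of the higher genes and under -2 in 400 of the lower genes, and it was over 3 in 86 and under -3 in 138. Without intact replicate 3, the calls were 990 higher (6%) and 1430 lower (8.66%), with 270 over 2, 458 under -2, 82 over 3 and 160 under -3. Of the calls, 933 higher and 1254 lower genes were the same in both fits, and no gene was called in opposite directions. The median of all genes tested was -0.03 on the log2 scale, or -0.05 without intact replicate 3.

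**Figure D1:**
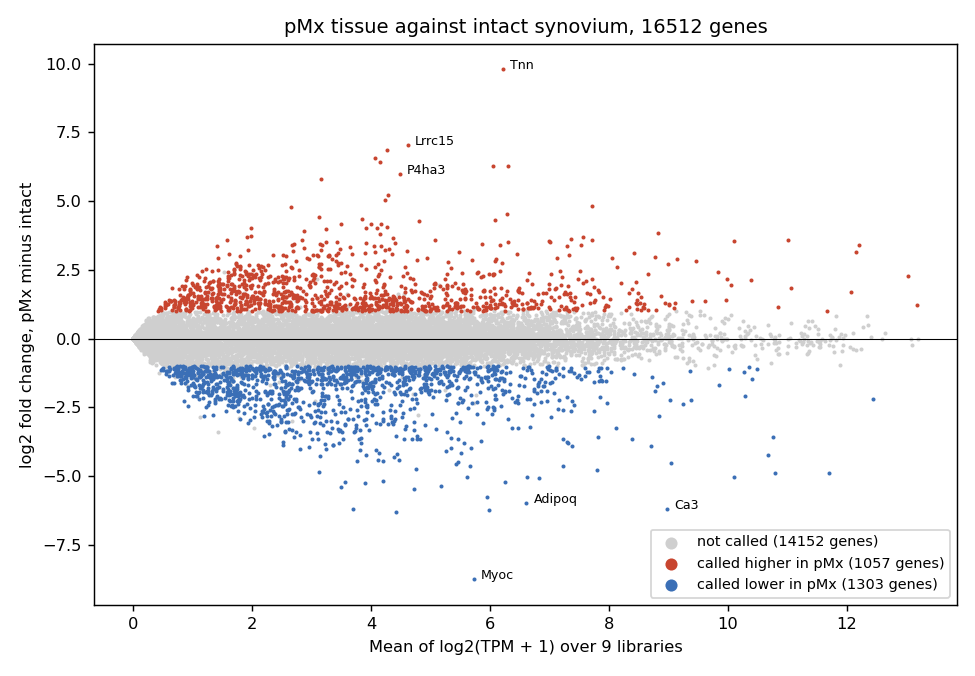
Mean log2(TPM + 1) over the 9 libraries (horizontal axis) against the log2 fold change of pMx minus intact (vertical axis) for the 16512 genes tested, 1 point per gene. Red points are the 1057 genes called higher and blue points the 1303 called lower in pMx, and the named points run from Tnn at the top to Myoc at the bottom.

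The genes with the largest increases encoded matrix proteins, matrix enzymes and surface proteins of matrix-producing fibroblasts. Tnn, which encodes the matrix glycoprotein tenascin-N, measured 1.21, 0.49 and 0.62 TPM in replicates 1 to 3 of intact, 202, 193 and 90.3 TPM in those of sham and 1533, 1619 and 1477 TPM in those of pMx. The log2 fold change of pMx minus intact was 9.79 ± 0.29 (SE, adjusted p = 5.23e-07), the largest of all genes called in both fits. Lrrc15, a membrane protein of activated fibroblasts, was at 1.05, 0.92 and 0.75 TPM in intact, 31.3, 43.9 and 19.6 TPM in sham and 246, 276 and 226 TPM in pMx (log2 fold change 7.03). Acan, the gene of the cartilage proteoglycan aggrecan, was at 2.01, 0.49 and 0.25 TPM in intact, 32.5, 26.4 and 6.84 TPM in sham and 205, 182 and 236 TPM in pMx (log2 fold change 6.87 ± 0.53, adjusted p = 1.69e-05). In all 3 of these genes the sham libraries lay between the other groups and overlapped neither.

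Among the next genes, Mmp12 and Mmp13 encode secreted proteases, and P4ha3 encodes a subunit of the enzyme that hydroxylates collagen prolines. Mmp12, the macrophage elastase, was at 1.40, 0.22 and 0.07 TPM in intact and 160.4, 122 and 138 TPM in pMx (log2 fold change 6.58). Mmp13, a collagenase of cartilage and bone, was at 1.05, 0.62 and 0.41 TPM in intact and 170.3, 119 and 139 TPM in pMx (log2 fold change 6.41). P4ha3 was at 1.77, 1.28 and 1.42 TPM in intact and 150.3, 159 and 159.9 TPM in pMx, with a log2 fold change of 5.99 ± 0.15. Col12a1, a collagen that sits on the surface of collagen fibrils, was at 7.57, 10.1 and 9.49 TPM in intact and 775, 842 and 715 TPM in pMx. C1qtnf3 (log2 fold change 6.26), Podnl1 (5.79), Adam12 (5.22), Col11a1 (5.03) and Cthrc1 (4.83) complete the 12 largest increases. Cthrc1, which encodes a protein secreted by fibroblasts in repair, was the most abundant of these in intact synovium, at 36.3, 42.3 and 29.4 TPM, and reached 1079, 1048 and 988 TPM in pMx. Every one of the 12 had its 3 sham libraries between its intact and pMx libraries, with no overlap. The share of all genes tested with this order was not counted.

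The genes with the largest decreases included products of fat cells and secreted proteins. Myoc, which encodes the secreted glycoprotein myocilin, was at 643, 566 and 420.3 TPM in intact, 244, 153 and 298 TPM in sham and 0.24, 0.24 and 0.24 TPM in pMx (log2 fold change -8.76 ± 0.24, adjusted p = 3.97e-07). Adipoq, which encodes the fat cell hormone adiponectin, varied widely within both groups, at 1027, 327 and 65.8 TPM in intact and 3.20, 0.71 and 11.7 TPM in pMx. Its log2 fold change was -5.97 ± 0.98 (adjusted p = 0.00107), and it was -7.01 without intact replicate 3, -5.04 without intact replicate 1, -5.28 without pMx replicate 2 and -6.72 without pMx replicate 3. The lowest intact value of Adipoq was above the highest pMx value, which the choice of the genes with the largest decreases required. The sham libraries held 879.7, 699 and 649 TPM of Adipoq, within the range of the intact libraries.

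Other genes of this set were Thrsp (log2 fold change -6.22), Ca3 (-6.20), Cidec (-5.45) and Aqp7 (-5.25), which act in lipid storage or are abundant in fat, and Cytl1 (-5.75), Inmt (-5.40), Sult1a1 (-5.38) and Ccl11 (-5.22). Ca3, which skeletal muscle also expresses, was at 3167, 1490.5 and 1862 TPM in intact and 28.7, 20.4 and 33.9 TPM in pMx. Cytl1, which encodes a small secreted protein, was at 375, 366 and 281 TPM in intact, 111, 102 and 114 TPM in sham and 5.02, 3.63 and 7.99 TPM in pMx. Ccl11, the eosinophil chemoattractant eotaxin, was at 75.6, 68.3 and 50.4 TPM in intact, 16.2, 10.6 and 15.6 TPM in sham and 0.91, 0.91 and 0.45 TPM in pMx. Obp3 was listed at 0 TPM in all 3 pMx libraries and at 75.6, 83.1 and 61.7 TPM in intact, so no fold is given. Obp3 belongs to a family of near-identical lipocalin genes, and how reads shared between them were counted is not given in the sources used here. The sham libraries overlapped the intact libraries in Thrsp, Ca3, Adipoq, Cidec and Aqp7. In Myoc, Obp3, Cytl1, Inmt, Sult1a1 and Ccl11 all sham libraries lay below all intact libraries and above all pMx libraries. How common this order was over all genes tested was not counted.

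**Figure D2:**
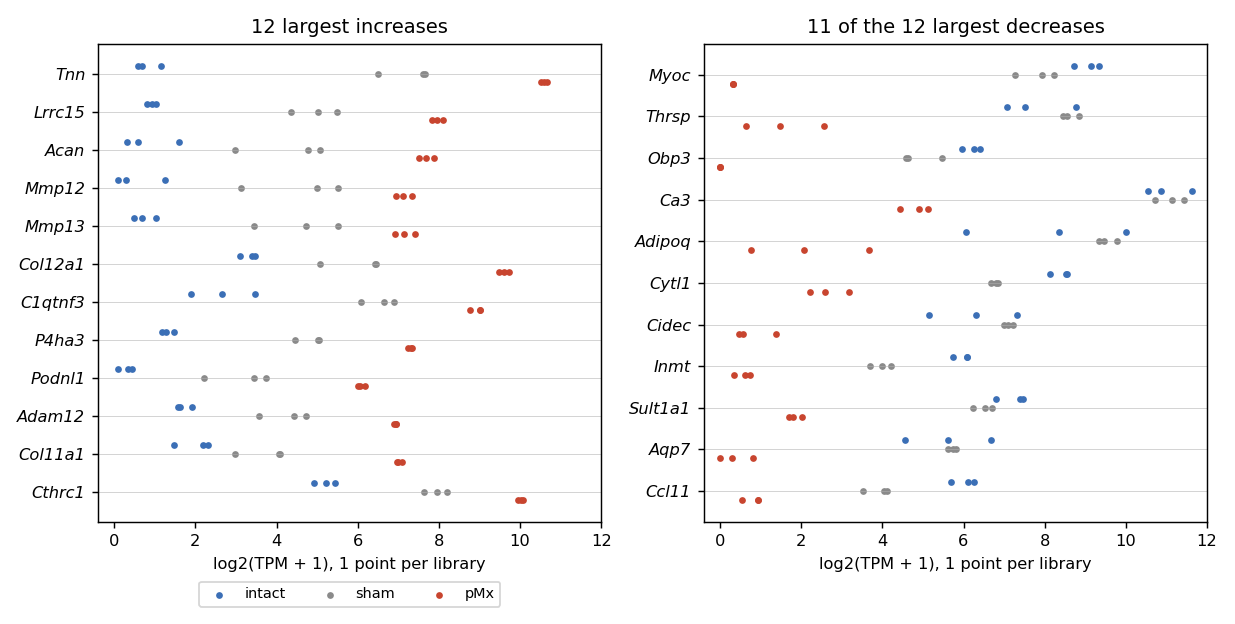
Log2(TPM + 1) in each library (horizontal axis, 1 point per library) for the 12 genes that rose most and 11 of the 12 that fell most in pMx against intact. They were chosen among genes called in both fits whose pMx and intact libraries did not overlap. Blue points are intact, gray points sham and red points pMx, and the red and blue points are apart in all 23 genes by this choice.

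The abundance of the transcriptome shifted with these changes. The sum of all gains in mean TPM from intact to pMx was 22.3% of all TPM, and the 15 largest gains summed to 8.10% of all TPM. The 3 leading gains were in fibrillar collagens. Col1a1 was at 1842, 1579 and 1128 TPM in intact and 16198, 16334 and 14475 TPM in pMx (log2 fold change 3.40 ± 0.19, adjusted p = 4.4e-06). Col3a1 was at 4365, 4218 and 2633 TPM in intact and 16967, 18829 and 17627 TPM in pMx, and Col1a2 at 1995, 1753 and 1189 TPM and 14136, 14671 and 13547 TPM. Sparc, Lum, Postn, Bgn and Serpinh1, which encode matrix proteins and a collagen chaperone, were also among the 15 and were called higher. Lyz2, the lysozyme of myeloid cells, was at 2934, 1839 and 1659 TPM in intact and 6694, 6523 and 6746 TPM in pMx. Tmsb10, Vim and Actb were among the 15 by TPM but below a log2 fold change of 1, and Ftl1 lost its call without intact replicate 3 (1.01 with it and 0.97 without it).

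The 15 largest losses in mean TPM summed to 6.25% of all TPM. The hemoglobin gene Hba-a1 led them, at 10009, 19229 and 12869 TPM in intact and 450.4, 431 and 488 TPM in pMx. Hba-a2 (log2 fold change -5.02), Hbb (-4.90) and LOC100134871 (-4.51) fell with it. Globin genes of the same chain can be near-identical copies, as Hba-a1 and Hba-a2 are. How reads shared between such copies were counted is not given in the sources used here, so the split among copies of a chain is uncertain. Cst3, which encodes the protease inhibitor cystatin C, was at 11671, 10105 and 8123 TPM in intact and 2034, 2299 and 2167 TPM in pMx (log2 fold change -2.19). Gsn, the actin-severing protein gelsolin, was at 6377, 5961 and 4058 TPM in intact and 275, 265 and 309 TPM in pMx (log2 fold change -4.24). Fabp4, the fatty acid carrier of fat cells, was at 5634, 4106 and 3186 TPM in intact and 298, 308 and 459.99 TPM in pMx. Acta1, Tnnc2, Ckm, Myl1 and Mylpf, all genes of skeletal muscle, were among the 15 because of intact replicate 3, and none was called. Dcn, the small proteoglycan decorin, was at 5435, 4857 and 4185 TPM in intact and 2497, 2640.1 and 2187 TPM in pMx, with a log2 fold change of -0.98, and was called lower without intact replicate 3 (-1.08).

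Of the 44 collagen chains tested, 21 were called higher and 6 lower, against 6.4% and 7.89% of all genes. The counts of the other lists below are to be read against the same shares of all genes. The count was 21 higher and 7 lower without intact replicate 3, and the median log2 fold change of the list was 0.65. The list took 0.702% to 1.12% of all TPM in intact, 1.98% to 2.54% in sham and 5.89% to 6.32% in pMx. Besides Col1a1, Col1a2, Col3a1, Col11a1 and Col12a1, chains of type V were higher, with Col5a1, which starts the assembly of type I fibrils, at 142, 154 and 102 TPM in intact and 1885, 1948 and 1883 TPM in pMx (log2 fold change 3.85). The 6 lower chains were led by Col28a1, a collagen found around nerves, at 36.9, 32.2 and 22.8 TPM in intact and 0.93, 0.89 and 0.95 TPM in pMx (log2 fold change -4.01). Col4a5 (-2.36), a basement membrane chain, and Col23a1 (-1.79), a membrane collagen, followed. Col2a1, the main collagen of hyaline cartilage, was at 16.1, 0.29 and 0.24 TPM in intact and 0.89, 0.56 and 0.64 TPM in pMx and was not called (log2 fold change -0.83, adjusted p = 0.487), and its sign rested on intact replicate 1 (0.42 without it). Col10a1, a marker of hypertrophic chondrocytes, was under 1 TPM in every library.

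The enzymes that fold, modify and cross-link collagen followed the chains. Of 28 tested, 20 were called higher and 2 lower, and the median log2 fold change was 1.35. Without intact replicate 3, the count was 17 higher, since Loxl1 (1.13 and 0.98), P3h3 (1.09 and 0.93) and Loxl3 (1.02 and 0.93) moved below 1. Lox, the lysyl oxidase that starts cross-linking, was at 41.2, 32.8 and 24.8 TPM in intact, 67.98, 80.5 and 61.9 TPM in sham and 295, 271 and 281 TPM in pMx (log2 fold change 3.09). P3h4, a partner of the lysyl hydroxylase complex, was at 22.2, 24.9 and 19.4 TPM in intact and 121, 114 and 120.4 TPM in pMx. The 2 lower genes were P3h2 (log2 fold change -1.92), which modifies basement membrane collagen, and Colgalt2 (-1.61), which adds galactose to collagen.

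Matricellular proteins, which sit in the matrix and act on cells, held 14 higher and 5 lower genes among 24 tested (13 and 5 without intact replicate 3). Besides Tnn and Cthrc1, Spp1, which encodes osteopontin, rose from 32.3, 9.56 and 6.19 TPM in intact to 292, 259.9 and 396 TPM in pMx (log2 fold change 4.52 ± 0.73, or 5.16 without intact replicate 1). In sham, Spp1 was at 130.2, 265 and 38.9 TPM, above all intact values and overlapping those of pMx. The lower genes included Ccn2, a growth factor of connective tissue, at 1204, 1619 and 1242 TPM in intact and 284, 246 and 241 TPM in pMx (log2 fold change -2.39). Ccn3 (-2.56) and Sparcl1 (-2.23) also fell. Comp, the cartilage oligomeric matrix protein, lost its call without intact replicate 3 (log2 fold change 1.12 and 0.83).

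Among proteoglycans and genes of hyaluronan, 9 of 28 were higher and 2 lower (9 and 4 without intact replicate 3, where Dcn and Prg4 were added). Lum, a small proteoglycan that binds collagen fibrils, was at 631, 601 and 507 TPM in intact and 7153, 6842 and 7041 TPM in pMx (log2 fold change 3.60). Vcan, the large proteoglycan of early matrix, was at 21.5, 18.2 and 16.7 TPM in intact and 143, 151 and 127 TPM in pMx (log2 fold change 2.84). Omd, a small proteoglycan of mineralized tissue, fell from 44.5, 37.1 and 25.1 TPM to 3.75, 2.89 and 3.20 TPM, and Has1, a hyaluronan synthase of the synovial lining, from 65.2, 82.8 and 64.9 TPM to 31.02, 37.6 and 27.7 TPM.

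Genes of cartilage and tendon split, with 11 of 23 called higher and 6 lower (11 and 5 without intact replicate 3). Scx, the transcription factor scleraxis of tendon cells, was at 1.97, 2.16 and 15.6 TPM in intact, 12.7, 21.7 and 10.04 TPM in sham and 95.3, 95.1 and 77.3 TPM in pMx. Its log2 fold change was 4.06 ± 0.61, or 4.87 without intact replicate 3, the intact library with the highest Scx. Sox9, the transcription factor that directs cartilage formation, rose from 0.68, 0.69 and 0.71 TPM to 4.55, 5.07 and 5.92 TPM (log2 fold change 1.86 ± 0.14, adjusted p = 1.63e-05), while its partner Sox6 fell from 4.76, 5.08 and 7.28 TPM to 1.31, 0.93 and 0.97 TPM. Matn2 (2.43) and Matn4 (2.28), matrix adaptor proteins, also rose. Ucma, a secreted protein of cartilage, was at 91.7, 35.2 and 26.2 TPM in intact and 1.49, 1.99 and 1.64 TPM in pMx (log2 fold change -4.06). Chad, a cartilage protein, was at 142, 2.07 and 9.52 TPM in intact and 0.23, 0.15 and 0.08 TPM in pMx, with a log2 fold change of -3.86 (-2.30 without intact replicate 1 and -5.08 without intact replicate 2), and its call (adjusted p = 0.0477) was lost in 13 of 22 alternatives, including the fits without intact replicate 1 and without intact replicate 3. Among 8 markers of bone-forming cells, Sp7 (1.56) and Alpl (1.05) were higher and Phex (-2.37) lower, and no pMx library held over 4 TPM of Sp7. The counts of these markers were the same without intact replicate 3.

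Matrix proteases and their inhibitors, the TIMPs, had 17 of 40 genes higher and 6 lower, the same counts without intact replicate 3. Mmp9, a gelatinase, was at 0.68, 1.28 and 0.32 TPM in intact, 7.46, 32.3 and 3.14 TPM in sham and 44.9, 27.6 and 38.1 TPM in pMx (log2 fold change 4.44). Mmp3, the protease stromelysin 1, was at 156, 117 and 103 TPM in intact and 894, 766 and 639 TPM in pMx (log2 fold change 2.62). The inhibitors went separate ways. Timp1 was called higher (log2 fold change 2.34), whereas Timp4 fell from 41.2, 53.6 and 35.2 TPM to 3.73, 2.42 and 3.99 TPM (log2 fold change -3.34). Adamts19 (-2.07) and Mmp17 (-1.64) were the other leading decreases.

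Several of these protease genes lie near each other on chromosome 8 and carry the letters of an AP-1 motif, the site of Fos and Jun factors, close to their start. The windows below are the last 150 bases before the gene start of RefSeq on the rat build GRCr8, 5′ to 3′ on the strand of the gene, with each motif (TGAGTCA, or TGACTCA as read on the other strand) in capitals. Promoter sequences were matched by gene ID to 13298 of the genes tested, and the processing notes of the submitters list another build, mRatBN7.2, so these positions are not those of the deposited values. Mmp13, Mmp12 and Mmp3 were called higher. Mmp10 is shown beside them because it has the same motif but was listed at 0, 0 and 0 TPM in intact and 0.08, 0.08 and 0 TPM in pMx.
Mmp13, chr8:12782679-12782828, plus strand: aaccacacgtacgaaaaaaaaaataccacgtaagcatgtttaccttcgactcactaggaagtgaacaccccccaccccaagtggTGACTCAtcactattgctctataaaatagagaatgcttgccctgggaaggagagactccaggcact
Mmp12, chr8:12866502-12866651, plus strand: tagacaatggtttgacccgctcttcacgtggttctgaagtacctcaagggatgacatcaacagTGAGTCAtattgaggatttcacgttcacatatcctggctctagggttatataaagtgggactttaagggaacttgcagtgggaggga
Mmp3, chr8:12925131-12925280, plus strand: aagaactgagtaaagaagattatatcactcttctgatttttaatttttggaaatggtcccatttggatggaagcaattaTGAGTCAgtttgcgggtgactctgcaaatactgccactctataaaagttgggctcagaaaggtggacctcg
Mmp10, chr8:12974557-12974706, plus strand: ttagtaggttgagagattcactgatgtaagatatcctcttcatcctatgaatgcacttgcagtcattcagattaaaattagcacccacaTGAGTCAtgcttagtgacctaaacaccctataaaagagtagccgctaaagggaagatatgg
Over the 250 bases searched on both strands, the motif was in 5 of the 29 promoters matched to the protease list (17.2%) and in 3.44% of the 13298 promoters. Of these 5 genes, 3 were called and 2, Mmp7 and Mmp10, were not. The motif letters are a description of the sequence and do not show binding.

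Genes of the cell cycle were higher in pMx. All 29 mitosis genes tested were called higher, with and without intact replicate 3, with a median log2 fold change of 2.49. None was lower at limma's unadjusted p below 0.05. All their pMx libraries lay above all intact libraries, as in 4449 of the 16512 genes tested. The list took 0.00655% to 0.00750% of all TPM in intact, 0.0145% to 0.0251% in sham and 0.0573% to 0.0649% in pMx. Cdk1, the kinase that drives entry into mitosis, was at 5.03, 6.24 and 5.06 TPM in intact, 20.3, 23.8 and 15.5 TPM in sham and 73.2, 67.1 and 72.7 TPM in pMx (log2 fold change 3.49 ± 0.14, adjusted p = 1.92e-06). Its partner cyclins Ccna2 (3.39) and Ccnb2 (3.27) rose by similar amounts. Of 32 DNA replication genes, 19 were higher and none lower (21 and none without intact replicate 3), and none was lower at an unadjusted p below 0.05. Rrm2, a subunit of the enzyme that makes deoxynucleotides, was at 1.26, 1.75 and 1.09 TPM in intact and 38.9, 32.2 and 38.4 TPM in pMx (log2 fold change 3.99). Tk1 (3.32), the thymidine kinase, and Mcm5 (2.70), a subunit of the replicative helicase, followed.

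Promoters of mitosis genes are known to carry the CHR and CCAAT motifs, at which cell cycle repressors and NF-Y bind. Both are in capitals in the windows of Cdk1, Ccnb2 and Top2a, which encodes the topoisomerase that separates chromosomes and was at 2.25, 1.99 and 1.99 TPM in intact and 29.2, 25.6 and 28.1 TPM in pMx. The windows are drawn as above.
Cdk1, chr20:19265143-19265292, plus strand: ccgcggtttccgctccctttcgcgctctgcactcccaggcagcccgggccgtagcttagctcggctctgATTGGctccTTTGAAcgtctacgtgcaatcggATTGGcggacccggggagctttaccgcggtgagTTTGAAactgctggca
Ccnb2, chr8:79981659-79981808, minus strand: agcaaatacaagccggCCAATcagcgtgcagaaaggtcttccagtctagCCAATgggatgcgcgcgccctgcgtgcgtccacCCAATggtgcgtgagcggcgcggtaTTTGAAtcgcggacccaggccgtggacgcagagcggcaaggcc
Top2a, chr10:84473094-84473243, minus strand: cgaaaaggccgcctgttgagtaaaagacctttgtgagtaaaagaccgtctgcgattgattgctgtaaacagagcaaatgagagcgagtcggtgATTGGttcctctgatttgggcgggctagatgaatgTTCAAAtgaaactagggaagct
The CHR (TTTGAA, or TTCAAA) was in 11 of the 24 promoters matched to the mitosis list (45.8%) and in 11.2% of the 13298 promoters. The CCAAT letters (or ATTGG) were in 17 of the 24 (70.8%) and in 35% of the 13298. No test was run on these shares.

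Inhibitors and other regulators of the cell cycle were measured in the same libraries. The list of the CDK inhibitor and p53-Rb axis also holds D cyclins, their kinases, Lmnb1 and Glb1. Of its 22 genes, 6 were higher and 1 lower, with or without intact replicate 3, against 6.4% and 7.89% of all genes. The higher genes were Cdkn1c, Lmnb1, Cdkn2a, Rbl1, Cdkn2b and Glb1. Cdkn2a, which encodes p16, was at 3.36, 1.96 and 2.84 TPM in intact, 2.44, 2.03 and 3.94 TPM in sham and 12.2, 11.7 and 7.01 TPM in pMx (log2 fold change 1.59 ± 0.26, adjusted p = 0.000959). All 3 pMx values lay above all 6 others. Cdkn1c, which encodes the inhibitor p57, was more abundant, at 14.5, 11.3 and 10.5 TPM in intact and 88.98, 97.2 and 80.05 TPM in pMx (log2 fold change 2.78). Cdkn1a, which encodes p21, was at 28.3, 27.3 and 26.7 TPM in intact and 42.2, 47.9 and 40.3 TPM in pMx, and its log2 fold change of 0.64 ± 0.13 was below 1, although its adjusted p was 0.00317. Glb1, the lysosomal galactosidase behind the beta-galactosidase stain, was at 53.5, 52.02 and 35.3 TPM in intact and 116, 118 and 108 TPM in pMx (log2 fold change 1.28). Lmnb1, a nuclear lamina gene that is known to fall in senescent cells, was higher in pMx, at 21.5, 21.2 and 20.3 TPM against 5.29, 4.51 and 3.93 TPM. These are values of bulk tissue, and which cells held the transcripts of these genes was not tested. Ccnd2, a cyclin of early G1, was the lower gene (log2 fold change -1.23).

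Chemokines leaned lower. Of 31 in the table, 29 were tested, and 5 were higher and 10 lower (5 and 11 without intact replicate 3), against 6.4% and 7.89% of all genes. The higher ones included the monocyte attractant Ccl12, at 4.55, 3.04 and 1.86 TPM in intact and 30.3, 28.7 and 27.7 TPM in pMx (log2 fold change 2.90), Ccl9 (2.73) and Ccl3 (2.09). The lower ones included, after Ccl11, the B cell attractant Cxcl13, at 252, 155 and 125 TPM in intact, 51.6, 30.8 and 81.7 TPM in sham and 9.52, 22.1 and 6.37 TPM in pMx (log2 fold change -3.81). Ccl19, which attracts T cells and dendritic cells, fell from 20.9, 18.9 and 17.4 TPM to 0.71, 1.20 and 0.71 TPM. Of 25 interleukins and related cytokines tested among 28 in the table, 5 were higher and 4 lower in both fits. Tnfsf11, which encodes the osteoclast factor RANKL, was at 0.43, 0.16 and 0.15 TPM in intact and 5.15, 7.34 and 5.87 TPM in pMx (log2 fold change 2.51). Il1rn, the antagonist of the interleukin 1 receptor, was at 1.72, 1.60 and 0.83 TPM and 9.03, 9.16 and 10.6 TPM. Il33, a nuclear cytokine released from damaged stromal cells, fell from 141, 134 and 112 TPM to 23.4, 24.02 and 15.2 TPM (log2 fold change -2.59), as did Il12a (-1.91) and Il15 (-1.59).

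Ligands and antagonists of the TGF-beta, activin and BMP family were mixed, with 7 of 31 higher and 10 lower (6 and 10 without intact replicate 3). The shares of all genes were 6.4% and 7.89%. Inhba, which encodes the subunit of activin A, was at 18.4, 24.02 and 24.4 TPM in intact and 75.1, 70.8 and 81.5 TPM in pMx (log2 fold change 1.73). Fst, which encodes the activin antagonist follistatin, moved the other way, from 40.4, 41.4 and 30.4 TPM in intact to 2.26, 2.08 and 3.94 TPM in pMx (log2 fold change -3.37). Ltbp2 (3.06), a matrix protein of microfibrils, and Chrdl2 (1.63) rose, while Gdf10 (-3.39) and the BMP antagonist Chrdl1 (-3.31) fell. Of 29 Wnt ligands and antagonists tested among 32 in the table, 4 were higher and 6 lower (4 and 7 without intact replicate 3), against the same shares of all genes. Wnt5a, a noncanonical ligand, was at 2.79, 3.06 and 2.25 TPM in intact and 11.1, 9.95 and 12.3 TPM in pMx, and Rspo3, an enhancer of Wnt signaling, at 4.47, 5.01 and 5.92 TPM and 0.15, 0.15 and 0.14 TPM. Dkk3 (1.73) and Sfrp1 (1.61) rose, and Dkk2 (-2.75) and Sfrp5 (-2.45) fell.

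Growth factors of the FGF, IGF, VEGF, PDGF and EGF families and their binding proteins were listed together with angiopoietins, angiopoietin-like proteins and Hgf. Members of this list were more often lower, with 2 of 42 tested called higher and 15 lower (1 and 14 without intact replicate 3), among 44 in the table. Of all genes tested, 6.4% were called higher and 7.89% lower. Fgf1, a broadly acting fibroblast growth factor, fell from 14.5, 18.5 and 12.98 TPM to 1.09, 1.16 and 1.40 TPM (log2 fold change -2.87). Fgf10, which signals from stroma to epithelium, was listed at 0 TPM in all 3 pMx libraries and at 2.82, 7.54 and 3.53 TPM in intact. Angptl7 was at 18.7, 3.70 and 5.81 TPM in intact and 0.61, 0.51 and 0.23 TPM in pMx, with a log2 fold change of -2.57 that was -1.97 without intact replicate 1. Angptl2, a secreted protein of inflamed stroma, rose from 109, 120.2 and 89.6 TPM to 452, 483 and 481 TPM. Igf1 had a log2 fold change of 1.01, which moved to 0.92 without intact replicate 3, 0.95 without intact replicate 2 and 0.94 without pMx replicate 2, so that it was no longer called.

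Interferon-stimulated genes were lower in pMx. None of 23 tested was higher and 16 were lower, or 18 without intact replicate 3, with a median log2 fold change of -1.65. At limma's unadjusted p below 0.05 and any fold, none was higher and 20 were lower. Isg15, a ubiquitin-like protein made in response to interferon, was at 126, 112 and 54.4 TPM in intact, 23.7, 15.9 and 47.8 TPM in sham and 12.9, 8.10 and 8.29 TPM in pMx (log2 fold change -3.13 ± 0.43, adjusted p = 0.000373). The antiviral GTPase genes Mx1 (-3.04) and Mx2 (-2.97) fell by similar amounts. The sham values of Isg15 lay below all intact values and above all pMx values. The summed level of the list was 0.174% to 0.233% of all TPM in intact, 0.122% to 0.154% in sham and 0.0817% to 0.0895% in pMx.

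The interferon response acts through the ISRE, whose letters (GAAANNGAAA, or TTTCNNTTTC) are in capitals in the windows of 3 lower genes, drawn as above. They are Ifit3, an antiviral protein at 36.9, 58.3 and 20.9 TPM in intact and 3.43, 4.40 and 3.86 TPM in pMx, Irf7, a factor that amplifies the response at 139, 119.6 and 75.01 TPM and 14.6, 19.4 and 13.9 TPM, and Rsad2, which encodes viperin, at 9.61, 23.03 and 4.45 TPM and 0.85, 1.05 and 0.48 TPM.
Ifit3, chr1:241527176-241527325, plus strand: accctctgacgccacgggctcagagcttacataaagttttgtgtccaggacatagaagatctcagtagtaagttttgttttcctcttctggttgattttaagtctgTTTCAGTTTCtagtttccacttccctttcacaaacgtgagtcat
Irf7, chr1:205800024-205800173, minus strand: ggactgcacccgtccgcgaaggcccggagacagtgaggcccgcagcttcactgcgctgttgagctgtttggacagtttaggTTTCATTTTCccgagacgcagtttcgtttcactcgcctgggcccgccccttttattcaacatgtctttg
Rsad2, chr6:48788121-48788270, minus strand: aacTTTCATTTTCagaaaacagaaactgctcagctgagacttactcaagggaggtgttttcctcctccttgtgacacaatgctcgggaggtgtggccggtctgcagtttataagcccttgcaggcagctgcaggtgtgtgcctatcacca
The letters were in 10 of the 15 promoters matched to the list (66.7%) and in 2.64% of the 13298 promoters. Of these 10 genes, 8 were called lower and 2, Oas3 (log2 fold change -0.32) and Ifi27 (-0.81), were not called.

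Complement genes also leaned lower, with 1 of 25 higher and 9 lower (2 and 9 without intact replicate 3), against 6.4% and 7.89% of all genes. C4b, a component of the classical pathway, was at 467, 388 and 255 TPM in intact, 413, 357 and 432 TPM in sham and 26.4, 30.5 and 20.9 TPM in pMx (log2 fold change -3.76). How reads shared with its near-identical copy C4a were counted is not given in the sources used here. Cfb, of the alternative pathway, fell by 3.39 on the log2 scale. Cfd, the factor D that fat cells secrete, had a log2 fold change of -2.81, or -3.72 without intact replicate 3 and -2.03 without intact replicate 1. Cfi, an inhibitor of complement, rose from 0.12, 0 and 0.24 TPM to 2.93, 4.79 and 1.66 TPM. Of 23 immediate-early genes, 2 were higher and 6 lower in both fits. Fosl1, a component of AP-1, was at 0.36, 0.32 and 0.46 TPM in intact and 4.59, 4.19 and 5.21 TPM in pMx, and Ier3 also rose (1.17). Klf4 (-1.26), Egr1 (-1.39) and Nr4a1 (-1.73) fell, and the call of Nr4a1 was lost without pMx replicate 2 (adjusted p = 0.0528).

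**Figure D3:**
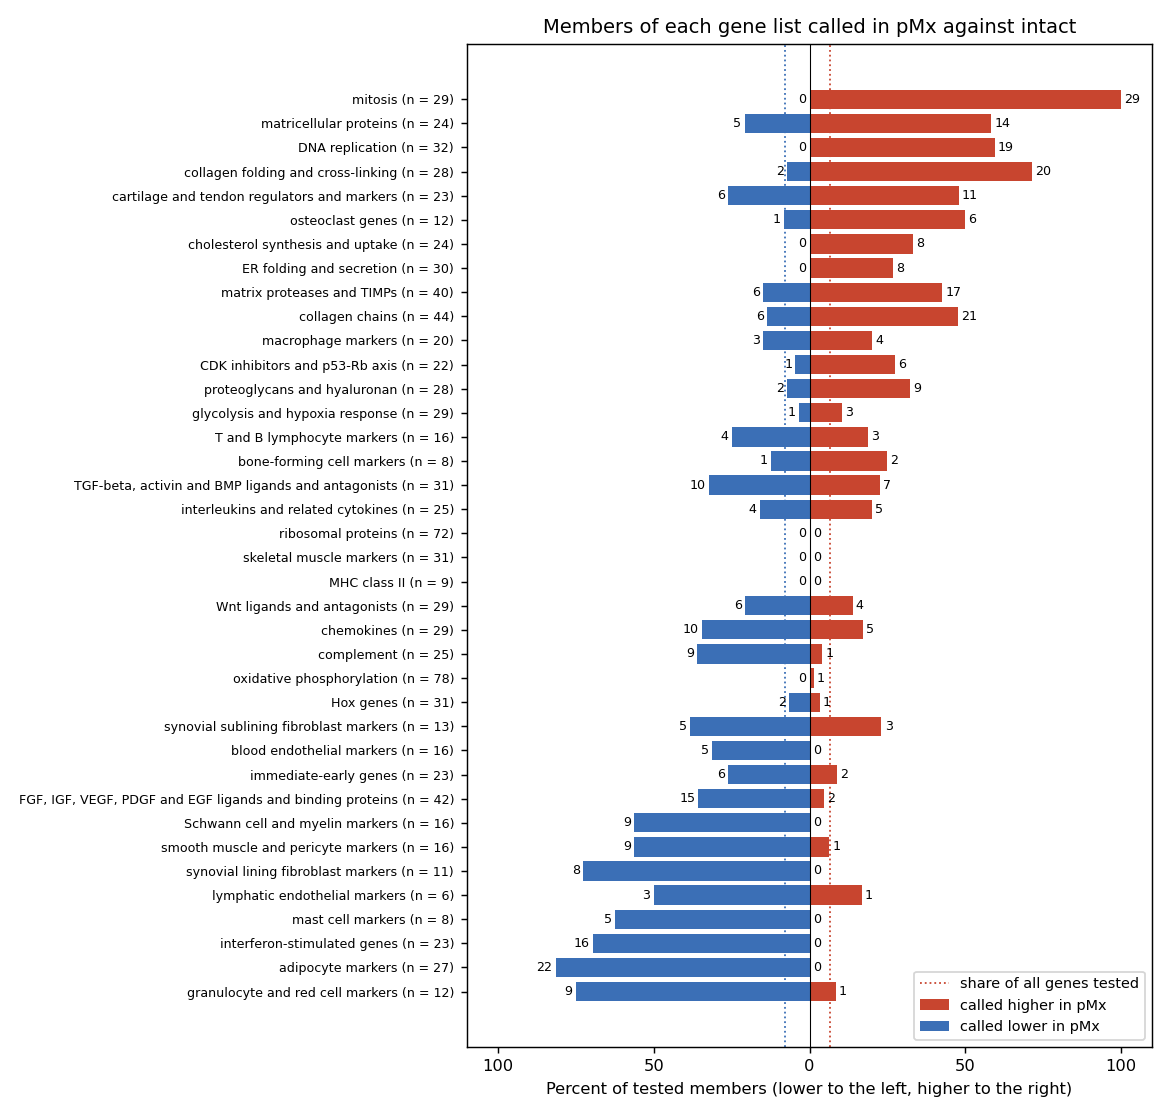
Share of the tested members of each gene list that was called higher (red, to the right) or lower (blue, to the left) in pMx against intact, in percent, with the count at the end of each bar. Dotted lines mark the share of all genes tested that was called higher (6.4%) and lower (7.89%), and the bars run from mitosis, with 29 of 29 higher, to adipocyte and blood cell markers, with 22 of 27 and 9 of 12 lower.

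The genes of secretion and cholesterol synthesis that were called were all higher. Of 30 genes of folding and transport in the endoplasmic reticulum (ER), 8 were higher and none lower (7 and none without intact replicate 3). Kdelr3, a receptor that returns proteins to the ER, was at 96.5, 93.2 and 64.8 TPM in intact and 343, 313 and 304 TPM in pMx (log2 fold change 1.92), and Kdelr2 (1.84) and the translocon subunit Sec61a1 (1.79) rose as well. Of 24 genes of cholesterol synthesis and uptake, 8 were higher and none lower (6 and none without intact replicate 3). At limma's unadjusted p below 0.05, 1 of the ER genes and 2 of the cholesterol genes were lower. Sqle, squalene epoxidase, was at 4.58, 5.83 and 4.90 TPM in intact and 22.7, 16.6 and 20.4 TPM in pMx, and Cyp51 (1.47) also rose.

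Of 29 genes of glycolysis and the hypoxia response, 3 were higher and 1 lower (7 and 1 without intact replicate 3), where 6.4% of all genes were higher and 7.89% lower. Ca9, a carbonic anhydrase induced by low oxygen, was at 0.73, 0.62 and 0.24 TPM in intact, 0.94, 1.69 and 0.57 TPM in sham and 22.6, 12.4 and 25.1 TPM in pMx (log2 fold change 3.74 ± 0.29, adjusted p = 1.64e-05). Ankrd37 (1.55) and Aldoc (1.26) rose, and Adm fell (-1.21). The additional calls without intact replicate 3 were the glycolysis genes Slc16a3 (1.63 and 2.57), Pgk1 (0.83 and 1.27), Pkm (0.58 and 1.08) and Gapdh (0.56 and 1.24), with the log2 fold change given with and without that library. The list took 1.59% of all TPM in intact replicate 3 against 0.478% and 0.490% in intact replicates 1 and 2, and skeletal muscle is rich in glycolytic enzymes. It took 0.443% to 0.581% in sham and 0.845% to 0.901% in pMx. Of 78 genes of oxidative phosphorylation, only Cox4i2, a cytochrome oxidase subunit, was called (log2 fold change 1.91), and none of 72 ribosomal proteins was, in either fit. At limma's unadjusted p below 0.05 and any fold, 2 oxidative phosphorylation genes were higher and 32 lower, and 10 ribosomal protein genes were higher and 16 lower. These unadjusted counts include intact replicate 3. The oxidative phosphorylation list took 3.95% of all TPM in that library, 2.53% and 2.49% in intact replicates 1 and 2 and 2.38% to 2.45% in pMx. Its median log2 fold change was -0.33, or -0.11 without intact replicate 3. Of 31 Hox genes tested among 33 in the table, Hoxd10 was higher, at 2.70, 2.90 and 2.70 TPM in intact and 11.5, 9.59 and 12.4 TPM in pMx, and Hoxb7 (-1.39) and Hoxb3 (-1.01) were lower, the same counts as without intact replicate 3.

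Markers of the cell types of synovium were lower for most types. In these bulk samples, fewer cells of a type and less RNA per cell cannot be told apart. In the lists of this group with no member called higher by limma, 1 fat cell marker and 2 lining fibroblast markers were higher at an unadjusted p below 0.05, and no marker of Schwann cells, blood endothelium or mast cells was. Of 27 fat cell markers, none was higher and 22 were lower (21 without intact replicate 3), with a median log2 fold change of -2.81. They took 0.605% to 1.42% of all TPM in intact, 0.908% to 1.10% in sham and 0.0615% to 0.0890% in pMx. The 5 markers not called were genes of fatty acid synthesis and lipid droplets that other cells also express (Plin5, Acaca, Fasn, Acly and Elovl6). Of 16 markers of Schwann cells and myelin, none was higher and 9 were lower (10 without intact replicate 3). All 16 had their pMx libraries below all intact libraries, as did 5048 of the 16512 genes tested. Ncmap (-3.33) and Mbp, myelin basic protein, fell, the latter from 57.9, 70.5 and 38.1 TPM to 5.46, 6.48 and 5.23 TPM.

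Vessel markers were lower to unequal degrees. Of 16 markers of smooth muscle cells and pericytes, 1 was higher and 9 lower, with the smooth muscle myosin Myh11 at 423, 665 and 371 TPM in intact and 29.8, 29.3 and 41.1 TPM in pMx (log2 fold change -3.79). Synpo2 (-3.66) and Lmod1 (-3.18) fell with it. The higher gene was Pdgfrb, a receptor that fibroblasts also carry (1.36). Of 16 markers of blood endothelium, none was higher and 5 were lower. Cldn5, a tight junction protein, was at 102, 139 and 97.7 TPM in intact and 26.8, 29.3 and 35.4 TPM in pMx, and Emcn (-1.42) and Vwf (-1.17) also fell, Vwf losing its call without pMx replicate 1 (-0.99). Pecam1, which all endothelium expresses, was not called (log2 fold change -0.53). Of 6 lymphatic markers, Mmrn1 (-3.50), Ccl21 (-3.22, a gene with near-identical copies) and Lyve1 (-2.16) fell and Reln rose (1.44). Lyve1 was at 25.02, 16.3 and 18.2 TPM in intact and 4.46, 4.09 and 2.52 TPM in pMx. The counts of these 3 lists were the same without intact replicate 3.

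Macrophage markers were mixed. Of 20 tested, 4 were higher and 3 lower (3 and 3 without intact replicate 3), against 6.4% and 7.89% of all genes. At limma's unadjusted p below 0.05 and any fold, 12 were higher and 3 lower. Cd68, a lysosomal protein of macrophages, was at 101, 70.9 and 65.96 TPM in intact, 147, 166 and 138 TPM in sham and 228, 209 and 189.7 TPM in pMx (log2 fold change 1.41). Gpnmb, a membrane protein of lipid-loaded and repair macrophages, was at 225, 216 and 145 TPM in intact and 638, 595 and 587 TPM in pMx. The 3 lower genes are known in resident macrophages, but Mrc1 and Folr2, also known there and in the list, were not among the lower genes. Vsig4, a complement receptor, was at 189, 113 and 113 TPM in intact, 72.8, 40.5 and 66.3 TPM in sham and 10.2, 8.69 and 4.76 TPM in pMx (log2 fold change -3.98). Timd4 (-2.71) and the hemoglobin scavenger receptor Cd163 (-2.20) fell as well. The summed level of the list was 0.370% to 0.613% of all TPM in intact, 0.864% to 0.957% in sham and 0.938% to 0.991% in pMx. Of 12 osteoclast genes, 6 were higher and 1 lower in both fits. Acp5, the tartrate-resistant acid phosphatase, was at 39.9, 34.1 and 25.8 TPM in intact and 128, 101 and 136 TPM in pMx (log2 fold change 1.85), while Tnfrsf11b, the RANKL decoy osteoprotegerin, fell from 33.6, 36.7 and 30.3 TPM to 8.17, 7.23 and 5.70 TPM. Calcr, the calcitonin receptor of mature osteoclasts, was not called.

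Among other blood-derived cells, 9 of 12 markers of granulocytes and red cells were lower and 1 higher (9 and 0 without intact replicate 3). They took 1.90% to 3.65% of all TPM in intact, 0.942% to 1.43% in sham and 0.0816% to 0.0932% in pMx, mostly as hemoglobin, and their part in the other differences was not tested. The higher gene, Csf3r, lost its call without intact replicate 3 (log2 fold change 1.12 and 0.98). Of 8 mast cell markers, none was higher and 5 were lower in both fits, with the protease Cpa3 at 34.7, 23.5 and 9.44 TPM in intact, 49.8, 38.5 and 72.9 TPM in sham and 1.75, 1.31 and 0.64 TPM in pMx (log2 fold change -3.26), followed by Cma1 (-2.66) and Tpsb2 (-2.61). The sham values of Cpa3 were above all intact values, and the pMx values below them. Lymphocyte markers were mixed, with 3 of 16 higher and 4 lower (2 and 3 without intact replicate 3), against 6.4% and 7.89% of all genes. At limma's unadjusted p below 0.05 and any fold, 7 were higher and 5 lower. The T cell markers Cd3e, Cd3d, Cd3g, Cd4, Lck and Il7r were not called higher. The list took 0.0148% to 0.0241% of all TPM in intact and 0.0177% to 0.0221% in pMx. Cd8a, a receptor of cytotoxic T cells, was at 1.08, 1.38 and 0.76 TPM in intact and 6.66, 8 and 5.52 TPM in pMx, and Cd8b rose with it (2.19), while Cd2 lost its call without intact replicate 3 (1.06 and 0.88), without pMx replicate 2 and without pMx replicate 3. The B cell genes Cd79b (-1.85), Cd79a (-1.78) and Ms4a1 (-1.62) fell most among the 4 lower markers, all from under 15 TPM. None of 9 MHC class II genes was called by limma in either fit, and 2 were higher and 1 lower at an unadjusted p below 0.05.

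Fibroblast markers of the synovial lining were lower. Of 11 tested, none was higher and 8 were lower (9 without intact replicate 3). Clic5, a chloride channel family member, was at 448, 503 and 436 TPM in intact, 308, 157 and 253 TPM in sham and 17.2, 13.1 and 8.86 TPM in pMx (log2 fold change -5.08 ± 0.27, adjusted p = 3.86e-06). Htra4, a secreted protease, was at 1164, 1431 and 1108 TPM in intact and 99.1, 91.9 and 55.98 TPM in pMx (log2 fold change -3.92), and the adhesion molecule Vcam1 also fell (-2.24). Prg4, which encodes lubricin, stayed abundant in pMx at 1738, 1537 and 1084 TPM against 2852, 2986 and 2099.9 TPM in intact (log2 fold change -0.87, or -1.03 and called without intact replicate 3). Its sham values, 1451, 1245 and 1248 TPM, overlapped those of pMx. Of 13 sublining fibroblast markers, 3 were higher and 5 lower (3 and 6 without intact replicate 3). Thy1, a surface marker of sublining fibroblasts, was at 147, 119 and 99.8 TPM in intact, 327, 402 and 249.98 TPM in sham and 1072, 966 and 1074 TPM in pMx (log2 fold change 3.10), and Mfap5 rose by less (1.25). Besides Gsn, Clec3b (-2.84) and Ly6c (-2.35, of a gene family with similar copies) fell.

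**Figure D4:**
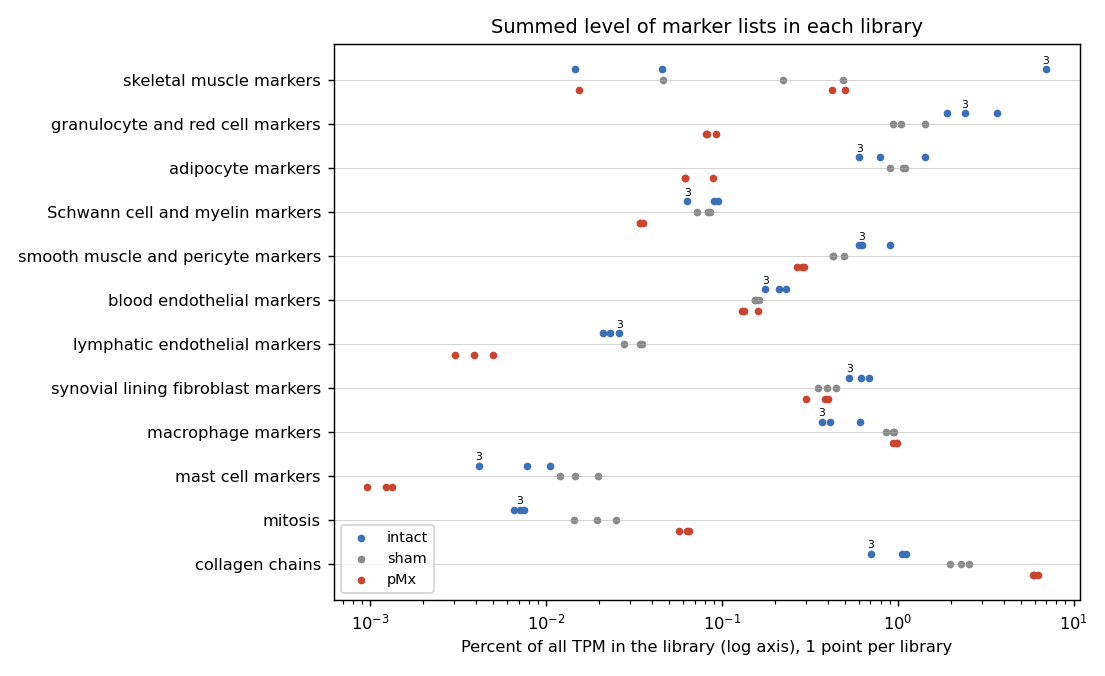
Summed TPM of each list as percent of all TPM in the library (horizontal log axis, 1 point per library), with intact in blue, sham in gray and pMx in red and the number 3 over intact replicate 3. Skeletal muscle markers reach 6.94% in intact replicate 3, and the pMx points lie below all intact points for blood cells, fat, Schwann cells, vessels, mast cells and lining fibroblasts and above them for macrophages, mitosis and collagens.

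The values of the skeletal muscle genes depended on intact replicate 3. None of 31 was called by limma, none had an unadjusted p below 0.05, and their median log2 fold change was -0.11 with all libraries and 2.29 without intact replicate 3, when 1 was called higher. Over all genes tested, 124 higher and 49 lower calls were made only with intact replicate 3, and 57 higher and 176 lower calls only without it. In the same 2 fits, the median of the mitosis list was 2.49 and 2.56 and that of the fat cell list was -2.81 and -2.89.

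**Figure D5:**
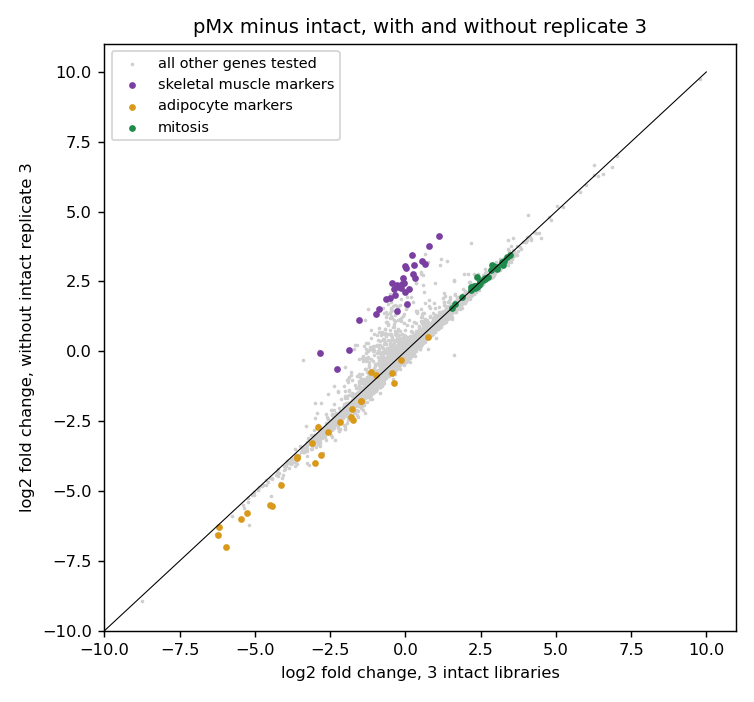
Log2 fold change of pMx minus intact with all 3 intact libraries (horizontal axis) and without intact replicate 3 (vertical axis), 1 point per gene, with the line of equal values. Skeletal muscle markers (purple) lie above the line, with a median of -0.11 on the horizontal and 2.29 on the vertical axis, while mitosis genes (green) lie close to it and adipocyte markers (orange) on both sides of it.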

How the data were processed

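Poly(A) RNA of 9 rat knee samples was sequenced by BGI. The authors deposited TPM values, which they obtained from Dr. Tom. The submitters' processing notes list HISAT2 2.0.4 and the build mRatBN7.2. The counting tool, annotation and filters are not given in the sources used here, and the labels and the paper's methods name different extraction kits and sequencers. The 9 value columns were matched to samples by title.

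The deposited values were put on the scale of log2(TPM + 1), and 16512 of 17602 genes, those over 0 TPM in 3 or more libraries, were tested. One mean per group was fitted to the 9 libraries with limma 3.58.1 (eBayes with a trend; R 4.3.3), and p-values were adjusted by Benjamini-Hochberg over all genes tested. On this scale, fold changes of genes at low TPM come out too small. A call needed an adjusted p under 0.05 and a log2 fold change beyond 1 or -1. The calculation was tested on simulated data. Figures were drawn with matplotlib 3.10.9.

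The gene lists, the genes and the comparison were chosen with earlier results of these data known. The genes named by rule are the 12 largest increases and 12 largest decreases among genes called with and without intact replicate 3 whose groups did not overlap, up to 3 called members of each list in each direction, and genes the study measured by staining or qPCR. The 15 largest gains and losses of TPM, the promoter examples and genes whose call changed without a library were named after their values were seen. Several genes named by rule are left out and not reported here. Promoters come from RefSeq (GRCr8), with the first start listed for each gene. Alternatives were other pseudocounts, filters, normalizations, variance settings and thresholds, the replicate number as a block, and leaving out each library.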

Additional observations from a re-analysis of the deposited data

How the results depend on the processing

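Of 165 named genes, 162 were called, and 153 kept their direction and side of the threshold under all 22 alternatives. Most were named because they were called, and the largest changes also had to be called without intact replicate 3. These counts therefore follow in part from the choice of genes and do not measure how stable other genes were. The counts of 1057 higher and 1303 lower genes stayed within 1.5 times under the filters, rescalings, variance settings and stricter threshold. With adjusted p alone they were 3868 and 4482. With a pseudocount of 0.1 or 0.01, 2010 and 2094 genes were lower, because low genes then change more on the log2 scale, and 1521 and 1568 were higher. Leaving out 1 library gave 990 to 1134 higher and 1217 to 1430 lower genes. The fit with the replicate block gave 1055 higher and 1295 lower genes. Same-numbered pMx and intact libraries did not deviate together, with correlations of -0.378, -0.439 and -0.664, and skeletal muscle markers, high in intact replicate 3 and pMx replicates 1 and 2, moved with these values. The labels do not say what a number marks, so the check does not show whether same-numbered samples share an animal or day. Col2a1 ranged from -1.48 to 0.42 on the log2 scale when 1 library was left out, and it was 0.42 without intact replicate 1 (adjusted p = 0.409), where its direction reversed. The cause was not tested. The 31 lost calls of named genes were in Chad (13 alternatives), Hoxb3, Igf1, Cd2, Nr4a1, Cfd, Vwf, Csf3r and Alpl. Chad, Nr4a1 and Cfd missed the threshold of adjusted p, Cfd at 0.01 alone (their reported values are 0.0477, 0.0140 and 0.0116), and the others moved below 1 in absolute log2 fold change. Col10a1 was called with a pseudocount of 0.1 or 0.01, and Col10a1 and Cdkn1a with adjusted p alone. TPM keeps no depth, so no limit of detection can be given.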
